A study of Macaca mulatta with 30 samples.

Results

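This account compares the sublingual gland with the pancreas of the same rhesus macaques (Macaca mulatta). The libraries were chosen by the tissue code in their names (SL against PANC) and paired by animal, which gave 12 of the 30 libraries of the series, 6 of each tissue. RNA sequencing (mRNA libraries, paired reads) was run on RNA from flash-frozen tissue sections, and the animals' parotid gland, submandibular gland and liver were sequenced alongside. Animals 1 to 4 were female and animals 5 and 6 male, every sublingual piece came from the left gland, and no label names a treatment, an age or a strain. All values are TPM, a transcript abundance per unit length in which every library has the same sum. The sequencing depth is therefore unknown, and where a handful of genes take a large share of a library, its other genes read lower.

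The sublingual gland lies under the tongue and is mainly a mucous salivary gland: its acini release mucins and antibacterial proteins, and plasma cells between the acini supply antibody that the epithelium carries into saliva. The pancreas packs digestive proenzymes into granules in its acini, adds bicarbonate-rich fluid from its ducts under the hormone secretin, and holds islets that release insulin and other hormones into the blood. Both are branched glands whose acinar cells fill regulated secretory granules, and the study's design text names salivary glands against pancreas as a primary comparison.

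Markers of the tissues showed that not every piece was alike. The squamous oral mucosa list (keratins and cornified-envelope genes of the mouth lining, 17 genes in the table) summed to 46109 TPM in the sublingual library of animal 1 and 129462 TPM in that of animal 4, but to 45.7 to 494 TPM in the other 4 sublingual libraries and 109.5 to 669 TPM in pancreas. SPRR3, a cornified-envelope gene, was the most abundant gene of the sublingual library of animal 4, at 38847 TPM, and ZG16B, the most abundant gene of the sublingual libraries of animals 2, 3, 5 and 6, was only at 2016 TPM there. Skeletal muscle genes summed to 13386 TPM in the sublingual library of animal 1 and 33015 TPM in that of animal 5, while the remaining 4 held 59.5 to 502 TPM. The pancreas library of animal 4 stood apart in the other direction: its protease genes summed to 3386 TPM, where the other 5 pancreas libraries had 156155 to 325813 TPM. Its fat cell genes summed to 24903 TPM (283 to 2591 TPM in the other 5) and its blood genes to 13961 TPM (73.1 to 469 TPM). The pair of animal 4 therefore set a mucosa-rich piece against a fat- and blood-rich one, and results are given with and without it. In tissue pieces, fewer cells of a type and less RNA per cell cannot be told apart.

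**Figure D1:**
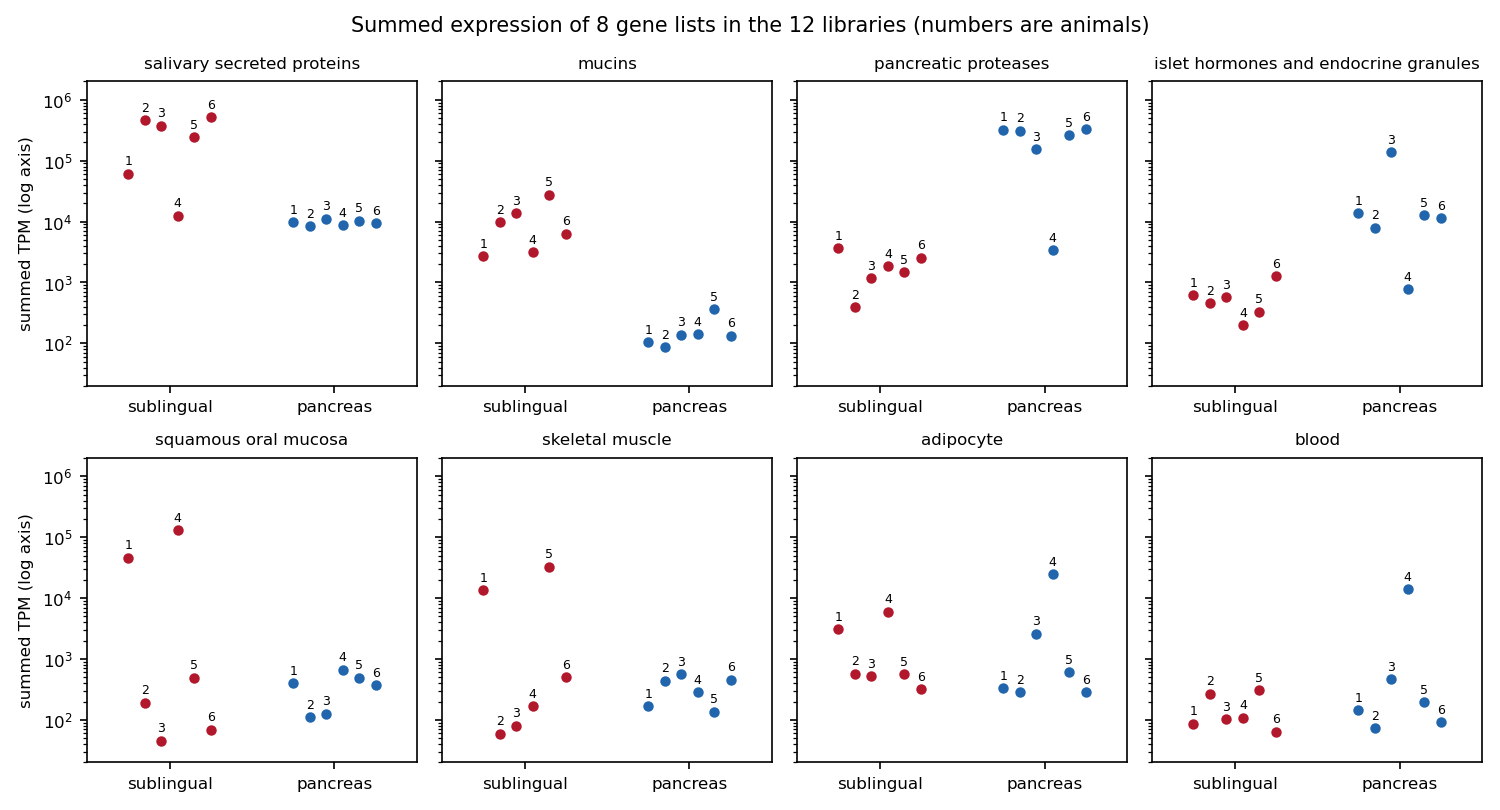
Summed TPM (log axis) of 8 gene lists in each of the 12 libraries, 1 point per library, labelled with the animal and coloured by tissue. The sublingual libraries of animals 1 and 4 are high in squamous oral mucosa genes, those of animals 1 and 5 in skeletal muscle genes, and the pancreas library of animal 4 is low in protease genes and high in fat and blood genes.

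Across the genome, more genes were higher than lower in the sublingual gland. Of 13550 genes tested with limma on log2(TPM + 1), 1887 differed at an adjusted p-value under 0.05 (13.9%): 1412 were higher in the sublingual gland (10.4%) and 475 lower (3.51%), with a median difference over all genes of 0.23. All differences below are sublingual minus pancreas on that log2 scale, with the standard error of the fit and the limma adjusted p, unless another scale is named. That balance depended on the scaling: with trimmed-mean factors, which centre the bulk of genes (median 0.02), 2916 genes differed, 1528 higher and 1388 lower, so the share of calls that were higher fell from 74.8% to 52.4%. Quantile normalisation gave 46.1% of its 3144 calls higher, and scaling to all but the 100 most abundant genes, which moved the median of all genes to -0.31, gave 23.7% of 3210. Without the pair of animal 4, 2641 genes differed (2149 higher, 492 lower). The count also moved with all libraries of a single animal left out: it was 1104 without animal 1, 1118 without animal 2 and 4277 without animal 4.

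Among genes with a symbol that moved the same way in all 6 animals and averaged 100 TPM or more where they were higher, the 12 largest rises ran from 5.53 to 6.998 and the 12 largest falls from -6.18 to -6.77. Each kept its direction and its call with trimmed-mean scaling, without the pair of animal 4 and in a fit to the 12 libraries alone. The rises were CRISP3, BPIFB1, C4H6orf58, LYZ, ZG16B, OLFM4, LCN2, SMR3A, FAM3D, WFDC2, MUC7 and GCNT3. The falls were CELA1, PRSS1, PNLIPRP2, PRSS2, CPB1, PNLIP, CPA1, PNLIPRP1, PDIA2, PLA2G1B, CELA3B and CLPS, all products of the pancreatic acinar cell. In each fall, the pancreas library of animal 4 was far below the other 5 pancreas libraries, so that the differences grew without its pair (CELA1 from -6.77 to -7.897).

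**Figure D2:**
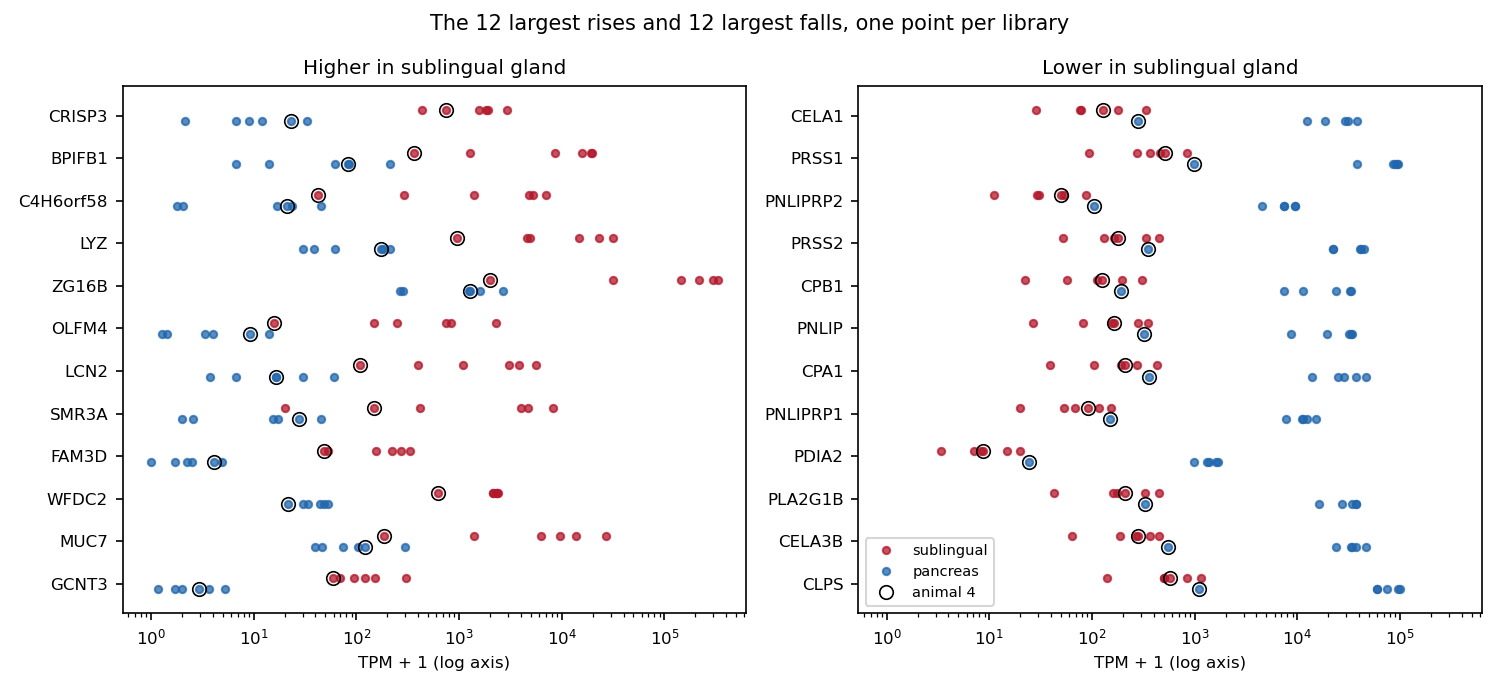
TPM + 1 (log axis) of the 12 genes with the largest rises (left) and the 12 with the largest falls (right) among genes of at least 100 TPM that moved the same way in all 6 animals, 1 point per library, red for sublingual gland and blue for pancreas, with animal 4 circled. On the right the circled pancreas points lie near the sublingual ones, and on the left the circled sublingual points are often the lowest of their tissue.

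ZG16B and PIP led the sublingual secretory profile. ZG16B, a lectin-like secreted protein, stood at 31359.7, 300050.0, 219405, 2016, 143860.0 and 332616 TPM in the sublingual glands of animals 1 to 6 and at 264, 283, 1585, 1278, 2666 and 1263 TPM in their pancreas. The tissues overlapped only because the sublingual gland of animal 4 was below the highest pancreas value, and the difference was 6.42 ± 0.81, adjusted p = 1.9e-06. PIP, prolactin-induced protein, an abundant protein of saliva and tears, was at 11374, 98005, 62555, 493, 30902 and 109280.0 TPM in the sublingual gland. In pancreas PIP was at 511, 461, 869, 547, 776 and 653 TPM. In animal 4 it was lower in the sublingual gland than in pancreas, in the other 5 animals it was at least 11374 TPM in the sublingual gland, and the difference was 5.15 ± 0.89, adjusted p = 1.3e-04. ZG16, a lectin of the pancreatic zymogen granule whose name ZG16B shares, went the other way: its pancreas values were 11798, 8407, 4897, 153, 18962 and 7252 TPM and its sublingual values 176, 13.7, 77.9, 73.99, 98.4 and 107 TPM (-5.97 ± 0.74, adjusted p = 1.5e-06).

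Most listed salivary secreted protein genes rose. This list and the others below were drawn up with earlier results of these data known. Their counts beside the shares of all genes are therefore descriptive only. Of 51 listed salivary secreted proteins 41 were in the table and 35 tested; 24 were higher in the sublingual gland, 0 lower (also 0 at an unadjusted p under 0.05) and 11 not past the threshold, with a median of 2.54 (all genes: 0.23, 10.4% higher). With trimmed-mean scaling 21 were higher (all genes: 11.3% higher, 10.2% lower), and without the pair of animal 4 the count was 27 (all genes: 15.9% higher, 3.63% lower). LYZ, lysozyme, which cuts bacterial cell walls, had sublingual values of 4607, 22959.5, 31311, 957, 4931 and 14704 TPM and pancreas values of 37.7, 28.9, 182, 172, 209.5 and 61.1 TPM. The groups did not overlap, and the difference was 6.47 ± 0.67, adjusted p = 1.1e-07. CSN3, kappa-casein, had sublingual values of 474, 480.3, 1910.1, 3.73, 587 and 168 TPM and pancreas values of 2.87, 1.33, 7.63, 3.87, 7.86 and 1.15 TPM (5.79 ± 0.83, adjusted p = 1.2e-05), and the sublingual gland of animal 4 was again the exception. FDCSP, a small secreted peptide of the mouth, ran from 57.5 to 751 TPM against 0 to 10.04 TPM in pancreas (5.396 ± 0.51, adjusted p = 3.0e-08). WFDC2, a secreted protein of the whey acidic protein family, had sublingual values of 2286, 2149, 2134, 624, 2317 and 2388 TPM and pancreas values of 32.6, 29.4, 52.5, 20.4, 47.2 and 43.3 TPM (5.63 ± 0.44, adjusted p = 1.9e-09), close together in all sublingual glands but that of animal 4.

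Not every abundant salivary gene separated the tissues. SMR3B, a proline-rich salivary peptide, was at 2387, 4194, 3674, 1287, 7819 and 2838 TPM in the sublingual gland and 3371, 2502, 3109, 1417, 1333 and 2106 TPM in pancreas, and the groups overlapped (0.56 ± 0.75, adjusted p = 0.71). In the parotid its mean reached 94707 TPM and in the submandibular gland 109106 TPM, far above both tissues compared here. What the SMR3B values in pancreas and sublingual gland stem from was not tested, and those in pancreas are not read as expression there. SMR3A, a close relative of SMR3B, did differ (6.12 ± 0.79, adjusted p = 2.5e-06), with sublingual values between 19.3 TPM (animal 1) and 8305 TPM (animal 5). Reads of such near-identical relatives, and of the PRSS, CELA, BPIF and amylase families, may have been divided between copies, so single members are uncertain. CA6, the secreted salivary carbonic anhydrase, was not past the threshold with all animals (1.96 ± 0.71, adjusted p = 0.068) and was past it without the pair of animal 4 (2.39, adjusted p = 0.031). AZGP1, a zinc-binding secreted glycoprotein, was higher (2.51 ± 0.62, adjusted p = 0.0057), but not past the threshold with trimmed-mean scaling (adjusted p = 0.060) or without animal 3 (2.20, adjusted p = 0.054), nor with quantile normalisation (adjusted p = 0.095) or relative to all but the 100 most abundant genes (adjusted p = 0.13).

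Of 23 antimicrobial genes tested (27 of 30 in the table), 13 rose and 0 fell (1 was lower at an unadjusted p under 0.05), with a median of 2.10 (all genes: 10.4% higher, 3.51% lower). With trimmed-mean scaling 12 rose and 1 fell (all genes: 11.3% higher, 10.2% lower). DEFB1, beta-defensin 1, an epithelial antibacterial peptide, was at 2724, 2934, 1729, 1472, 865 and 1614 TPM in the sublingual gland. In pancreas DEFB1 was at 23.4, 23.8, 82.97, 67.4, 38.7 and 34.1 TPM, with no overlap (5.41 ± 0.48, adjusted p = 1.6e-08). SLPI, an inhibitor of leukocyte proteases, ran from 681 to 10462 TPM in the sublingual gland, highest in animal 6, and from 44.2 to 113 TPM in pancreas (4.61 ± 0.40, adjusted p = 1.2e-08). LPO, lactoperoxidase, an enzyme that makes antibacterial oxidants in saliva, was lowest in animal 4 (16.1 TPM) and highest in animal 3 (1158 TPM), against 3.23 to 9.07 TPM (5.41 ± 0.65, adjusted p = 1.1e-06). DMBT1, a secreted scavenger receptor that binds bacteria, was at 2.01, 56.2, 341, 6.48, 299 and 167 TPM in the sublingual gland. In pancreas DMBT1 was at 0.6896, 0.104, 1.06, 3.896, 6.39 and 0.875 TPM (4.39 ± 0.75, adjusted p = 1.1e-04). The sublingual glands of animals 1 and 4 were the lowest. PI3, elafin, a protease inhibitor of surface epithelia, showed the reverse order: 1527, 32.98, 16.4, 3485, 21.2 and 9.04 TPM in the sublingual gland, high in animals 1 and 4 where the squamous mucosa list was high. Its difference was 3.58 ± 0.97, adjusted p = 0.012, and it was not past the threshold without animals 1 and 4 (1.37, adjusted p = 0.13), without animal 1 alone (2.71, adjusted p = 0.14) or without animal 2 alone (adjusted p = 0.050).

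Of 13 tested genes of antibody transport and plasma cells (16 listed and in the table), 11 rose and 0 fell (1 was lower at an unadjusted p under 0.05), with a median of 2.02 (all genes: 10.4% higher, 3.51% lower). Trimmed-mean scaling also gave 11 higher (all genes: 11.3% higher, 10.2% lower). Leaving out the pair of animal 4 gave 10 higher and 1 lower (all genes: 15.9% higher, 3.63% lower). JCHAIN, the chain that joins IgA and IgM into polymers, was at 173, 1125, 8866, 475, 8159.9 and 834 TPM in the sublingual gland. In pancreas JCHAIN was at 12.6, 15.7, 36.8, 42.9, 105 and 16.5 TPM (5.48 ± 0.57, adjusted p = 1.2e-07). PIGR, the epithelial receptor that carries such polymers into secretions, was at 42.1, 194, 212, 13.6, 562 and 78.8 TPM in the sublingual gland. In pancreas PIGR was at 1.302, 1.25, 2.06, 4.41, 5.002 and 1.38 TPM (4.97 ± 0.66, adjusted p = 3.7e-06). The groups did not overlap for either gene. CCL28, a chemokine for IgA-producing plasma cells, ran from 7.63 to 339 TPM against 0.619 to 8.12 TPM (4.84 ± 0.63, adjusted p = 3.0e-06), and the plasma cell gene MZB1 from 7.34 to 201 TPM against 0.375 to 2.52 TPM (4.48 ± 0.48, adjusted p = 2.1e-07). TNFRSF17, the plasma cell survival receptor BCMA, ran from 0.924 to 25.0 TPM against 0.588 to 1.54 TPM (2.02 ± 0.42, adjusted p = 9.7e-04).

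Most tested mucin genes were higher in the sublingual gland. Of 16 listed mucin genes, all in the table, 8 passed the filter of at least 1 TPM in at least 6 libraries. Of these 5 were higher and 0 lower, also 0 lower at an unadjusted p under 0.05 (median 2.02, all genes: 10.4% higher, 3.51% lower). With trimmed-mean scaling 6 were higher (all genes: 11.3% higher, 10.2% lower). Without the pair of animal 4, 6 were higher and 1 lower (all genes: 15.9% higher, 3.63% lower). MUC7, the small salivary mucin, was at 1401, 9527, 13818, 184, 27189 and 6309.9 TPM in the sublingual gland. In pancreas MUC7 was at 45.4, 38.7, 103, 122, 299 and 73.4 TPM (5.56 ± 0.77, adjusted p = 7.3e-06), and only animal 4 of the sublingual libraries fell within the pancreas range. MUC19, a gel-forming mucin of salivary mucous cells, was at 1.03, 14.6, 14.6, 3.22, 391 and 13.04 TPM, with a mean carried by animal 5, against 0.457 to 2.17 TPM (3.002 ± 0.72, adjusted p = 0.0046). MUC5B, the main gel-forming mucin of saliva, reached 1 TPM in only 5 sublingual libraries and so did not enter the test: it was at 2.64, 65.4, 13.8, 14.8, 13.4 and 0.128 TPM in the sublingual gland and at most 0.262 TPM in pancreas. Without the filter its difference was 3.11 (adjusted p = 1.0e-04).

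Among the membrane-bound mucins, MUC15 was even across animals, at 14.1, 30.6, 24.4, 15.9, 32.7 and 27.6 TPM against 0.118, 0.0791, 0.267, 0.318, 0.3595 and 0.111 TPM (4.32 ± 0.36, adjusted p = 5.8e-09). MUC20 rose by 2.13 (adjusted p = 3.2e-05) and MUC4 by 1.91 (adjusted p = 7.2e-04), the latter not past the threshold without animals 1, 4 and 5 (1.68, adjusted p = 0.061). MUC21, a mucin of squamous epithelium, was at 1147, 0.988, 0, 2833, 8.85 and 0 TPM in the sublingual gland and 2.07 to 10.6 TPM in pancreas, and only the sublingual values of animals 1 and 4 exceeded the pancreas range (1.61 ± 1.24, adjusted p = 0.46). Without those animals its difference was -1.38 (adjusted p = 0.10). MUC1, a membrane mucin of simple epithelia that is present in pancreatic ducts and acini, was likewise high in the sublingual glands of animals 1 and 4 only: 88.1, 4.59, 2.06, 87.4, 3.86 and 0.816 TPM against 44.3, 38.7, 22.7, 2.51, 46.8 and 46.5 TPM in pancreas. It did not pass with all animals (-1.36 ± 0.72, adjusted p = 0.24), and it fell by 2.56 without the pair of animal 4 (adjusted p = 0.0014). Without animals 1 and 4 it fell by 3.45 (adjusted p = 1.7e-07). That fit was chosen after seeing the data and leaves out the high sublingual values, so its p-value is no independent support for a fall.

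Of 35 tested glycosylation genes (47 of 48 in the table) 12 were higher and 2 lower (median 0.70; all genes: 10.4% higher, 3.51% lower), and with trimmed-mean scaling 9 were higher and 3 lower (all genes: 11.3% and 10.2%). The lower counts are near the shares of all genes. GCNT3, which branches the sugar cores of mucins, stood out at 94.9, 304, 153, 58.5, 67.6 and 120.2 TPM against 0.735, 0.162, 2.64, 1.96, 4.31 and 0.984 TPM (5.53 ± 0.41, adjusted p = 8.6e-10). ST6GALNAC1, which caps short mucin sugars with sialic acid, rose to 2.55 to 18.4 TPM from 0.272 to 3.20 TPM (2.11 ± 0.33, adjusted p = 3.3e-05), where the highest pancreas value was that of animal 4. ST6GALNAC2 rose by 2.301 (adjusted p = 0.0015), GALNT6 by 1.52 (adjusted p = 1.9e-04) and GALNT5 by 1.45 (adjusted p = 6.4e-06), the last 2 being enzymes that start sugar chains on mucins. GNE, the entry enzyme of sialic acid synthesis, rose by 1.57 (adjusted p = 0.0025). Relative to all but the 100 most abundant genes, GNE (1.05, adjusted p = 0.11) and ST6GALNAC2 (1.71, adjusted p = 0.093) were not past the threshold, and GALNT6 was not without animals 1, 4 and 5 (1.19, adjusted p = 0.064). The exceptions were ST6GALNAC4, another sialic acid transferase, at 3.33, 2.53, 5.18, 1.44, 13.1 and 1.84 TPM against 44.95, 46.9, 33.3, 13.98, 19.8 and 42.6 TPM (-2.79 ± 0.50, adjusted p = 1.9e-04), and FUT1, a fucose transferase (-1.27 ± 0.24, adjusted p = 3.7e-04).

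Companion genes of mucous cells were mostly higher too. Of 17 tested (22 of 24 in the table) 12 rose and 1 fell, with a median of 1.39 (all genes: 10.4% higher, 3.51% lower). With trimmed-mean scaling 10 rose and 1 fell (all genes: 11.3% higher, 10.2% lower). AGR2, a disulfide isomerase needed to fold mucins, was at 43.1, 77.6, 87.3, 53.1, 656 and 24.4 TPM in the sublingual gland. In pancreas AGR2 was at 4.21, 2.72, 2.83, 7.39, 6.48 and 1.94 TPM (4.04 ± 0.56, adjusted p = 6.5e-06). SPDEF, a transcription factor of mucous and goblet cells, was at 8.93, 72.3, 69.8, 17.03, 166 and 16.1 TPM in the sublingual gland. In pancreas SPDEF was at 1.13, 1.34, 1.33, 3.21, 2.33 and 1.17 TPM (3.81 ± 0.53, adjusted p = 7.6e-06). FCGBP, a mucin-bound protein of mucus, was at 11.6, 30.1, 16.8, 1.83, 60.4 and 25.01 TPM against at most 0.843 TPM (3.47 ± 0.40, adjusted p = 4.9e-07). In all 3 genes the groups did not overlap. TFF1, a trefoil peptide of mucus, rose by 2.95 (adjusted p = 1.1e-04). TFF3 rose by 2.46 (adjusted p = 0.012), and was not past the threshold without animal 2 (1.88, adjusted p = 0.13) or animal 5 (1.98, adjusted p = 0.066), nor relative to all but the 100 most abundant genes (adjusted p = 0.055). The member that fell was FOXA3, which belongs to mucous and to endodermal programmes: 0.753, 0.913, 0.586, 0.6903, 3.45 and 0.241 TPM against 12.1, 10.5, 8.999, 0.223, 9.28 and 10.9 TPM (-2.02 ± 0.36, adjusted p = 2.0e-04).

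On the pancreatic side, digestive enzyme genes fell without exception among those tested. All 10 tested proteases (11 of 16 in the table) were lower in the sublingual gland, with a median of -6.29, and so were all 5 tested lipases and cofactors (7 of 8 in the table), with a median of -6.30 (all genes: 3.51% lower). Both counts were the same with trimmed-mean scaling, without the pair of animal 4, and in the 12 libraries alone (all genes there: 7.74% past the threshold, 5.23% higher and 2.52% lower). PRSS2, anionic trypsinogen, was at 44359, 41725, 22049.8, 351, 22345 and 40677 TPM in pancreas. Sublingual values of PRSS2 were 447, 51.6, 129, 177, 162 and 333 TPM (-6.45 ± 0.70, adjusted p = 2.2e-07). PNLIP, pancreatic triglyceride lipase, was at 33622, 34279, 8698, 320.3, 19285 and 31896 TPM in pancreas. Sublingual values of PNLIP were 349, 25.7, 81.5, 162, 156 and 277 TPM (-6.400 ± 0.69, adjusted p = 2.1e-07). CLPS, the colipase that anchors this enzyme to fat droplets, was at 60030.5, 75188, 59960.5, 1107, 100414 and 95355 TPM in pancreas. Sublingual values of CLPS were 1149.9, 139, 498, 573, 506 and 838 TPM (-6.18 ± 0.71, adjusted p = 4.8e-07). In these 3 genes the pancreas of animal 4 lay within the sublingual range, and the other 5 pancreas libraries lay far above it. CPB1, procarboxypeptidase B, differed by -6.42 (adjusted p = 4.8e-07), CPA1, procarboxypeptidase A, by -6.36 (adjusted p = 2.2e-07), and PLA2G1B, the secreted phospholipase, by -6.24 (adjusted p = 6.4e-07).

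Granule, inhibitor and REG genes of the pancreas showed the same direction with more variation. Of 16 tested (19 of 22 in the table) 13 fell, 0 rose (also 0 at an unadjusted p under 0.05) and 3 did not pass, with a median of -5.61 (all genes: 10.4% higher, 3.51% lower). Trimmed-mean scaling gave the same counts (all genes: 11.3% higher, 10.2% lower). GP2, the main membrane protein of zymogen granules, was at 9535, 8618, 1857, 59.2, 2684 and 5652 TPM in pancreas. Sublingual values of GP2 were 79.3, 10.1, 16.2, 33.8, 86.98 and 41.8 TPM (-6.002 ± 0.70, adjusted p = 6.7e-07). SPINK1, the trypsin inhibitor of pancreatic juice, was at 9219, 9231, 6902, 115, 11956 and 6918 TPM in pancreas. Sublingual values of SPINK1 were 191, 30.3, 87.8, 67, 66.6 and 169 TPM (-5.61 ± 0.71, adjusted p = 2.1e-06). CUZD1, another zymogen granule protein, differed by -6.17 (adjusted p = 2.1e-07). REG1A, a secreted lectin of acinar cells, varied within pancreas, at 14.6, 189, 197, 1.73, 90.97 and 81.4 TPM, and was at most 2.43 TPM in the sublingual gland (-4.48 ± 0.62, adjusted p = 6.8e-06). PDIA2, a disulfide isomerase largely restricted to pancreas, was at 1699, 1619, 977, 23.5, 1311 and 1381 TPM in pancreas. Sublingual values of PDIA2 were 19.00, 2.39, 6.09, 7.72, 7.25 and 13.9 TPM (-6.29 ± 0.63, adjusted p = 7.5e-08).

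Islet hormone genes were lower in the sublingual gland, though less evenly. Of 16 tested genes (27 listed and in the table) 10 fell, 1 rose and 5 did not pass, with a median of -2.19 (all genes: 10.4% higher, 3.51% lower). With trimmed-mean scaling 12 fell and 0 rose (all genes: 11.3% higher, 10.2% lower). INS, insulin, was at 11444, 6281, 127239, 408, 10727 and 8897 TPM in pancreas, highest in animal 3, and at 424, 268, 326, 62.8, 48.5 and 939.6 TPM in the sublingual gland (-5.26 ± 0.85, adjusted p = 5.5e-05). GCG, glucagon, was at 465, 331, 835, 16.5, 325 and 549.8 TPM in pancreas. Sublingual values of GCG were 6.07, 1.94, 2.401, 3.54, 2.73 and 5.71 TPM (-5.93 ± 0.53, adjusted p = 1.7e-08). SST, somatostatin, was at 82.3, 86.3, 858, 4.17, 167 and 358 TPM in pancreas. Sublingual values of SST were 5.38, 1.57, 2.74, 1.09, 0.4098 and 4.29 TPM (-5.15 ± 0.65, adjusted p = 1.9e-06). The pancreas of animal 3 was the highest for INS, GCG and SST, and that of animal 4 the lowest. IAPP, the amylin released with insulin, differed by -5.49 (adjusted p = 7.6e-06), and ABCC8, the sulfonylurea receptor of beta cells, by -2.96 (adjusted p = 2.5e-06). SCG5, a chaperone of endocrine granules, ran from 0.672 to 9.27 TPM in the sublingual gland against 5.08 to 125 TPM (-2.19 ± 0.47, adjusted p = 0.0014). PAM, which amidates peptide hormones, was the member that rose (1.53 ± 0.44, adjusted p = 0.017). It was not past the threshold with trimmed-mean scaling (adjusted p = 0.061), and leaving out animal 2, 3, 5 or 6 in turn gave 1.11 to 1.498 with adjusted p from 0.079 to 0.14.

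**Figure D3:**
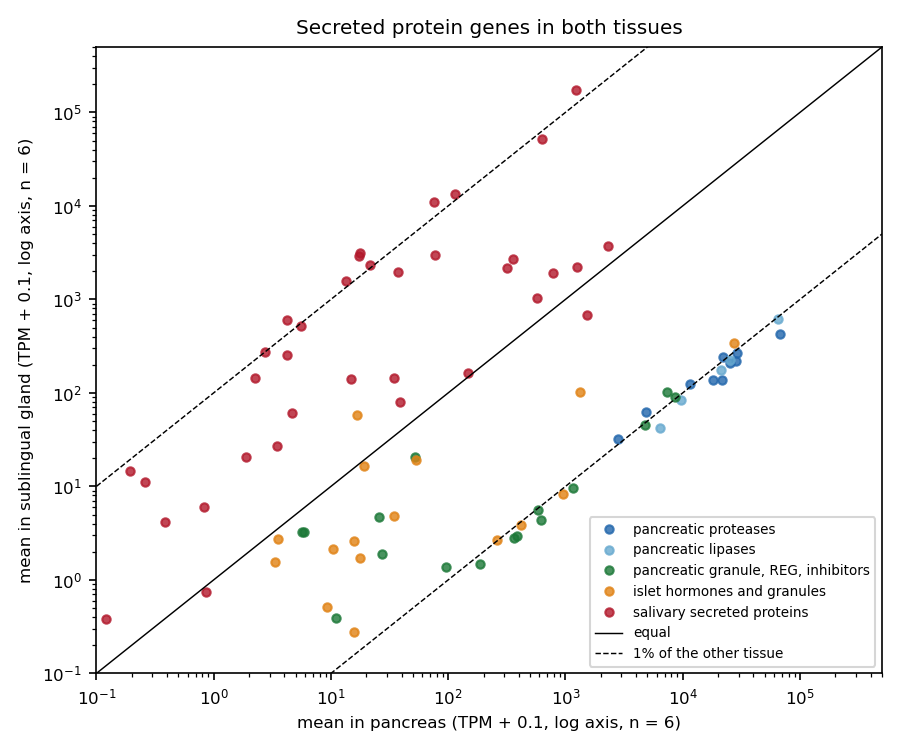
Mean TPM + 0.1 over 6 libraries in pancreas (x) and sublingual gland (y), both log axes, for tested members of 5 lists of secreted proteins, with lines at equal levels (solid) and at 1% of the other tissue (dashed). Pancreatic enzyme genes lie along the lower dashed line over several orders of magnitude, and most salivary genes lie above the solid line, many of them along the upper dashed line.

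The low values of these genes were mostly a small, similar share of the level in the other tissue. Over 29 pancreatic enzyme, granule and islet genes that fell and averaged at least 100 TPM in pancreas, the sublingual mean was 0.631% (CELA1) to 7.67% (TTR) of the pancreas mean, with a median of 0.888%, and 28 of the 29 were under 2%. For the same genes the median was 0.754% when parotid took the place of the sublingual gland, 0.626% for submandibular gland and 1.10% for liver. Of the 29 genes, 23 had their highest sublingual value in animal 1 and 26 their lowest in animal 2. Over 19 salivary genes that rose and averaged at least 100 TPM in the sublingual gland, the pancreas mean was 0.556% (C4H6orf58) to 40.6% (CST3) of the sublingual mean, with a median of 1.07%, and the liver median was 1.57%. What these low values stem from was not tested. No low value of a pancreatic gene in the sublingual gland, or of a salivary gene in pancreas, is read here as expression there.

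Most tested transcription factor genes of both lists differed between the tissues. Of 16 tested pancreatic factors (30 listed and in the table) 15 were lower in the sublingual gland and 0 higher, also 0 higher at an unadjusted p under 0.05 (median -2.33), and all 16 were lower with trimmed-mean scaling and without the pair of animal 4. Of 31 tested salivary and oral factors (35 listed and in the table) 25 were higher and 0 lower, also 0 lower at an unadjusted p under 0.05 (median 2.69), with the same counts under trimmed-mean scaling. Among all genes 10.4% were higher and 3.51% lower, 11.3% and 10.2% with that scaling, and 15.9% and 3.63% without the pair of animal 4. All 6 sublingual values were below all 6 pancreas values for 8 of the pancreatic factors (1.37% of all genes), and above them for 18 of the salivary factors (2.53% of all genes). Of the listed pancreatic factors, 25 were under 1 TPM in every sublingual library and 4 in every pancreas library. For the salivary and oral list, 2 were under 1 TPM in every sublingual library and 13 in every pancreas library. Such members could enter the test only through other tissues, which favoured these directions in advance, so the counts are no independent support for them.

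RBPJL, the acinar subunit of the PTF1 complex that drives digestive enzyme genes, was at 582, 398, 1079, 15.8, 1518 and 731 TPM in pancreas. Sublingual values of RBPJL were 7.96, 2.26, 6.27, 5.28, 5.51 and 4.23 TPM (-6.098 ± 0.64, adjusted p = 1.4e-07). NR5A2, a nuclear receptor that works with that complex, was at 15.1, 13.8, 9.99, 0.757, 11.7 and 11.1 TPM in pancreas and at most 0.193 TPM in the sublingual gland (-3.03 ± 0.34, adjusted p = 3.2e-07). PDX1, the factor that founds the pancreas and later serves beta cells, was at 11.2, 7.63, 22.4, 1.02, 4.64 and 8.600 TPM in pancreas and at most 0.114 TPM in the sublingual gland (-2.89 ± 0.30, adjusted p = 1.1e-07). GATA6, an endodermal factor, was even across pancreas libraries, animal 4 included, at 6.43, 4.72, 6.201, 6.43, 3.88 and 4.65 TPM against at most 0.353 TPM (-2.39 ± 0.37, adjusted p = 3.1e-05), unlike GATA4, at 13.1, 7.796, 9.06, 0.273, 5.68 and 4.31 TPM against at most 0.277 TPM (-2.45 ± 0.31, adjusted p = 1.8e-06). FOXA2, another endodermal factor, differed by -2.88 (adjusted p = 6.5e-06). BHLHA15 (MIST1), which matures the secretory apparatus of acinar cells, was present in both tissues, at 187, 176, 94.6, 2.57, 93.9 and 95.7 TPM in pancreas and 5.52, 11.3, 11.8, 5.096, 39.01 and 4.93 TPM in the sublingual gland (-2.68 ± 0.68, adjusted p = 0.0073), and was not past the threshold without animal 1 (-2.25, adjusted p = 0.090) or animal 2 (-2.45, adjusted p = 0.063).

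On the sublingual side, PITX1, a homeobox factor of the oral and hindlimb regions, showed the largest rise of the list: 199.8, 57.7, 90.8, 330.1, 107 and 40.01 TPM against 3.005, 0.909, 1.65, 2.602, 2.59 and 1.57 TPM (5.19 ± 0.45, adjusted p = 1.1e-08). Its highest values were those of animals 4 and 1, and it rose by 4.74 without those animals, a fit chosen after seeing the data. SOX2, a progenitor factor of oral epithelium and salivary glands, was at 29.4, 25.2, 41.4, 23.5, 27.5 and 10.5 TPM in the sublingual gland. In pancreas SOX2 was at 0.2098, 0.254, 0.142, 0.848, 0.957 and 0.197 TPM (4.19 ± 0.24, adjusted p = 7.3e-12), and the groups did not overlap in any animal. BARX2, a homeobox factor of oral and gland epithelium, was similarly even, at 73.1, 39.3, 45.5, 66.8, 47.04 and 23.96 TPM against 3.57, 2.28, 4.302, 2.11, 2.89 and 3.14 TPM (3.57 ± 0.49, adjusted p = 5.5e-06). SOX10, which marks salivary acinar and myoepithelial cells, was at 5.39, 29.1, 41.7, 1.78, 37.3 and 7.85 TPM in the sublingual gland. In pancreas SOX10 was at 1.102, 0.971, 1.34, 2.54, 1.22 and 1.21 TPM (2.58 ± 0.50, adjusted p = 5.6e-04), and the sublingual gland of animal 4 fell within that range. ELF5 and EHF, epithelial ETS factors, rose by 2.52 (adjusted p = 1.9e-04) and 3.02 (adjusted p = 5.3e-05). ASCL3, a factor of salivary duct cells, rose by 3.03 (adjusted p = 3.2e-05), PAX9, an oral patterning factor, by 3.04 (adjusted p = 1.0e-04), IRX2 by 3.75 (adjusted p = 2.2e-08) and the ductal factor TFCP2L1 by 3.11 (adjusted p = 5.2e-05). KLF5 and ELF3, factors of surface epithelia, were highest in animals 1 and 4: KLF5 was at 123, 17.2, 13.3, 148, 17.99 and 12.4 TPM, against 1.08, 1.52, 2.12, 4.66, 2.66 and 1.45 TPM in pancreas. It rose by 3.41 with all animals and by 2.47 without those 2. ELF3 rose by 3.19 with all animals and by 2.19 without them.

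**Figure D4:**
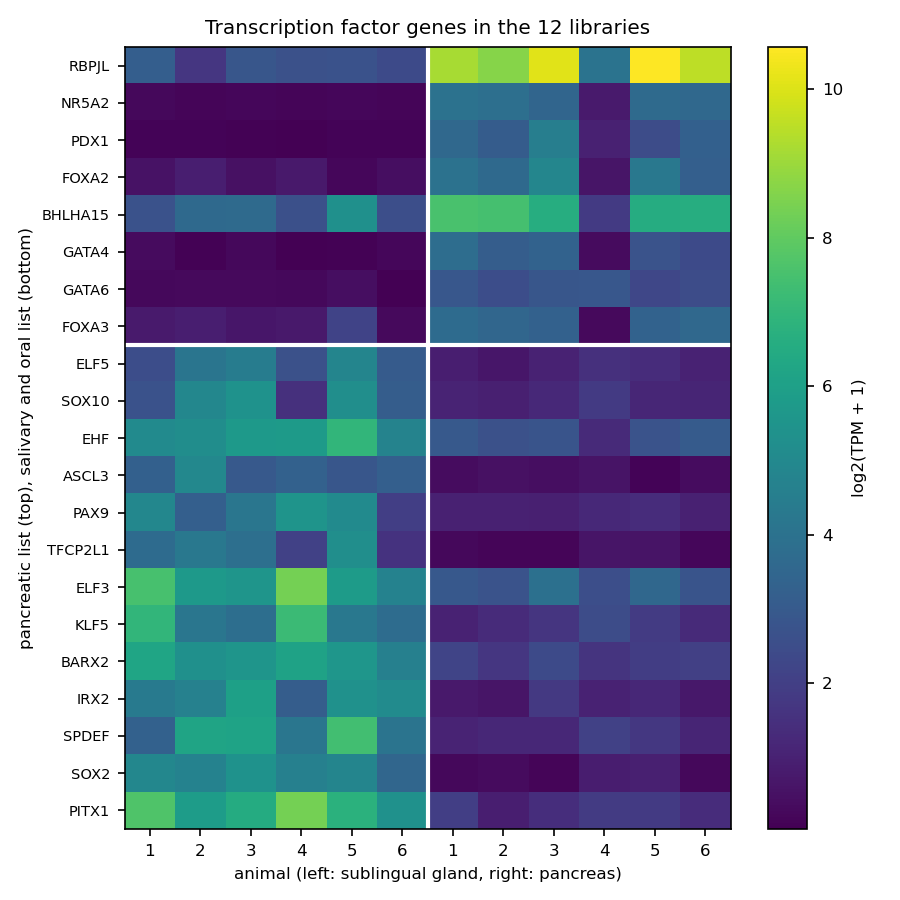
Level of the pancreatic (top) and salivary or oral (bottom) transcription factor genes named in the text as log2(TPM + 1) in the 6 sublingual (left) and 6 pancreas libraries (right), ordered by the difference within each list. The pancreatic factors are dark on the left, the salivary factors bright on the left, and in the pancreas of animal 4 several pancreatic factors, GATA4 and FOXA3 among them, are dark while GATA6 is not.

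Among the receptors through which nerves and hormones start secretion, 15 were tested (24 listed and in the table) and 9 of them were not past the threshold. The others gave 4 higher and 2 lower, shares above the 10.4% and 3.51% of all genes, with a median of 0.19. In the 12 libraries alone 1 was higher and 1 lower (all genes: 5.23% higher, 2.52% lower). SCTR, the secretin receptor of pancreatic ducts, had the largest difference: 78.6, 47.5, 191, 6.39, 72.1 and 96.4 TPM in pancreas against 1.45, 0.585, 1.12, 0.463, 0.481 and 0.716 TPM in the sublingual gland (-5.04 ± 0.47, adjusted p = 2.6e-08). NPY1R, a neuropeptide Y receptor, was lower (-1.47 ± 0.43, adjusted p = 0.021) but not past the threshold without animal 1 (-1.49, adjusted p = 0.074), 3 (adjusted p = 0.061) or 6 (-1.08, adjusted p = 0.15). In the 12 libraries alone NPY1R and CHRM1 were not past it either (adjusted p = 0.059 and 0.056). CHRM1, the muscarinic receptor subtype of mucous gland cells, was at 0.558, 3.37, 4.85, 0.233, 15.9 and 1.93 TPM in the sublingual gland. In pancreas CHRM1 was at 0.766, 0.279, 0.117, 0.104, 0.207 and 0.331 TPM (1.51 ± 0.38, adjusted p = 0.0065) and was not past the threshold without animal 3 (1.34, adjusted p = 0.052) or animal 5 (1.06, adjusted p = 0.056). P2RY2, an ATP receptor, had sublingual values of 31.9, 4.57, 5.02, 27.6, 22.2 and 2.16 TPM, high in animals 1, 4 and 5, and pancreas values of 2.32, 1.46, 3.92, 2.89, 3.02 and 2.79 TPM (1.65 ± 0.51, adjusted p = 0.030). It was not past the threshold without the pair of animal 4 (1.41, adjusted p = 0.077) or without animal 1 (1.32, adjusted p = 0.22), 2 (1.75, adjusted p = 0.086) or 5 (1.48, adjusted p = 0.13).

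Ion and water transport differed by gene, with different channels in each tissue. Of 33 tested (42 of 44 in the table) 18 were higher and 6 lower in the sublingual gland (median 1.30, all genes: 10.4% higher, 3.51% lower). With trimmed-mean scaling 17 were higher and 7 lower (all genes: 11.3% higher, 10.2% lower). AQP5, the water channel of salivary acini, was at 53.4, 313, 273, 19.8, 290.4 and 168 TPM in the sublingual gland. In pancreas AQP5 was at 3.09, 1.96, 7.24, 4.05, 6.36 and 2.77 TPM (4.73 ± 0.59, adjusted p = 1.5e-06). AQP8 and AQP12A, water channels of pancreatic acini, went the other way. AQP8 was at 777, 828, 438, 7.71, 618 and 799 TPM in pancreas. Sublingual values of AQP8 were 9.04, 2.05, 2.88, 3.85, 2.85 and 12.2 TPM (-5.88 ± 0.65, adjusted p = 2.8e-07). For AQP12A the pancreas values were 249, 242, 146, 2.51, 247 and 226 TPM and the sublingual values 2.97, 0.339, 0.858, 1.03, 1.26 and 1.78 TPM (-5.62 ± 0.58, adjusted p = 1.2e-07). AQP3, a channel of basal and stratified epithelium, rose by 3.49 with all animals and by 2.83 without animals 1 and 4, where it was highest (139 and 195 TPM).

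Of the other transport genes, SLC12A2, the sodium-potassium-chloride importer of salivary acini, was at 2.85, 7.95, 5.78, 2.101, 11.6 and 3.42 TPM in the sublingual gland. In pancreas SLC12A2 was at 0.671, 0.495, 0.689, 1.14, 1.23 and 0.7405 TPM (1.69 ± 0.27, adjusted p = 4.5e-05). KCNN4, the calcium-activated potassium channel of these cells, was at 24.6, 167, 127, 7.86, 89.2 and 143 TPM in the sublingual gland. In pancreas KCNN4 was at 1.49, 1.32, 4.74, 6.57, 4.84 and 3.08 TPM (3.89 ± 0.50, adjusted p = 2.4e-06). KCNMA1, the large-conductance potassium channel, rose by 2.57 (adjusted p = 1.8e-04). ATP1B1, a sodium pump subunit, rose by 2.06 (adjusted p = 0.0011), but was not past the threshold relative to all but the 100 most abundant genes (1.39, adjusted p = 0.068). FXYD3, a modulator of the pump, rose by 3.73 (adjusted p = 1.3e-05). The sodium channel subunits of absorbing ducts rose by 2.84 for SCNN1A (adjusted p = 6.2e-05) and 2.93 for SCNN1B (adjusted p = 4.7e-05), and both were highest in animals 1 and 4. Without animals 1, 4 and 5 SCNN1A was not past the threshold (1.55, adjusted p = 0.084). CFTR, the duct anion channel, was at 6.903, 3.65, 5.01, 0.129, 3.89 and 5.22 TPM in pancreas. Sublingual values of CFTR were 0.335, 1.12, 0.5896, 0.232, 0.916 and 0.172 TPM (-1.54 ± 0.33, adjusted p = 0.0017). SLC4A4, the sodium-bicarbonate importer, was at 10.4, 6.200, 8.64, 0.444, 4.87 and 9.701 TPM in pancreas and at most 0.373 TPM in the sublingual gland (-2.46 ± 0.29, adjusted p = 6.2e-07). CA4, a membrane-bound carbonic anhydrase, fell by 2.03 (adjusted p = 1.1e-04).

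Few genes of the machinery shared by protein-secreting cells passed the test. Of 60 tested genes of endoplasmic reticulum folding and export, 3 were higher and 2 lower (median -0.01), shares below the 10.4% and near the 3.51% of all genes, and with trimmed-mean scaling 1 was higher and 6 lower. Without the pair of animal 4, 9 were higher and 3 lower. The shares of all genes were 11.3% higher and 10.2% lower with trimmed-mean scaling, and 15.9% and 3.63% without that pair. ERO1B, an oxidase that supports disulfide formation in pancreatic cells, was at 72.1, 70.3, 58.98, 3.91, 58.8 and 72.7 TPM in pancreas. Sublingual values of ERO1B were 2.95, 6.72, 7.897, 1.97, 7.36 and 4.08 TPM (-2.93 ± 0.42, adjusted p = 1.1e-05). SEL1L, a component of protein degradation at the endoplasmic reticulum, ran from 0.831 to 8.33 TPM against 1.11 to 42.1 TPM (-2.14 ± 0.49, adjusted p = 0.0030). TMED3, a cargo receptor of early secretory vesicles, was higher (1.84 ± 0.41, adjusted p = 0.0022) but not past the threshold with trimmed-mean scaling (adjusted p = 0.054), with quantile normalisation (1.12, adjusted p = 0.20) or relative to all but the 100 most abundant genes (1.15, adjusted p = 0.18). XBP1, the main driver of secretory-cell endoplasmic reticulum genes, was not past the threshold, at 91.3, 299, 571, 49.5, 388 and 205 TPM against 576, 539, 373, 113, 485 and 422 TPM (-0.90 ± 0.39, adjusted p = 0.14). With all animals XBP1 did pass with quantile normalisation (-1.35, adjusted p = 0.037) and relative to all but the 100 most abundant genes (-1.60, adjusted p = 0.022). With trimmed-mean scaling it passed once animal 4 was left out (-1.38, adjusted p = 0.021). Of 23 calcium release genes tested 3 rose and 0 fell (1 was lower at an unadjusted p under 0.05), near the shares of all genes (10.4% higher, 3.51% lower). With trimmed-mean scaling 4 rose and 2 fell, and without the pair of animal 4, 6 rose and 0 fell. ATP2C2, a Golgi calcium pump of secretory epithelia, was at 2.63, 4.91, 2.61, 5.84, 9.84 and 0.867 TPM against at most 0.338 TPM in pancreas (1.91 ± 0.35, adjusted p = 2.9e-04).

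Granule exocytosis genes gave 3 higher and 2 lower of 28 tested (median 0.16), and 4 higher and 4 lower with trimmed-mean scaling. These are near the shares of all genes (10.4% higher and 3.51% lower, and 11.3% and 10.2% with that scaling). VAMP8, the vesicle fusion protein of exocrine granules, was at 299.5, 444, 546, 569, 320.2 and 792 TPM in the sublingual gland. In pancreas VAMP8 was at 101, 104, 130.0, 56.4, 118 and 99.3 TPM (2.24 ± 0.30, adjusted p = 4.5e-06). RAB26, a granule GTPase of acinar cells, fell to 5.61, 10.7, 9.33, 3.37, 15.2 and 13.4 TPM from 52.5, 52.9, 86.8, 6.93, 69.8 and 65.7 TPM (-2.25 ± 0.43, adjusted p = 4.6e-04). SNAP25, a fusion protein of nerve and endocrine cells, fell by 1.41 (adjusted p = 0.0023). RAB11A, a recycling-vesicle GTPase, rose by 1.59 (adjusted p = 0.0092), highest in animals 1 and 4, and was not past the threshold without animal 1 (1.30, adjusted p = 0.10) or without animals 1, 4 and 5 (0.92, adjusted p = 0.15). Of 27 tested genes of amino acid supply 1 rose and 7 fell (median -0.30, all genes: 10.4% higher, 3.51% lower). With trimmed-mean scaling 2 rose and 10 fell (all genes: 11.3% higher, 10.2% lower). Without the pair of animal 4, 3 rose and 7 fell (all genes: 15.9% higher, 3.63% lower). GATM, the first enzyme of creatine synthesis, was at 613, 396, 109, 14.4, 122 and 498 TPM in pancreas. Sublingual values of GATM were 12.6, 10.01, 13.6, 8.18, 48.8 and 15.8 TPM (-3.42 ± 0.56, adjusted p = 7.6e-05). GAMT, the second enzyme, fell by 1.91 (adjusted p = 0.0021). CBS, which turns homocysteine toward cysteine, fell by 2.06 (adjusted p = 0.0034). SLC43A1, a large neutral amino acid carrier, fell by 2.00 (adjusted p = 1.6e-04) and SLC39A5, a zinc carrier kept on this list, by 4.95 (adjusted p = 3.2e-07). SLC7A5, another carrier of large neutral amino acids, was the member that rose (1.42 ± 0.30, adjusted p = 0.0011), highest in animals 1 and 4. It was not past the threshold without animals 1, 4 and 5 (0.78, adjusted p = 0.23) or without animals 1 and 4 with trimmed-mean scaling (0.60, adjusted p = 0.083). PHGDH, the entry enzyme of serine synthesis, did not pass on TPM (-1.18 ± 0.42, adjusted p = 0.059), but passed with trimmed-mean scaling (-1.45, adjusted p = 0.0040) and without animal 4 (-0.91, adjusted p = 0.015).

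Of 17 tested basal and myoepithelial genes (19 of 20 in the table) 10 rose and 0 fell, also 0 at an unadjusted p under 0.05 (median 2.18, all genes: 10.4% higher, 3.51% lower). Without the pair of animal 4, 14 rose (all genes: 15.9% higher, 3.63% lower). KRT14, a keratin of basal and myoepithelial cells, was at 1809, 162, 177, 1900.4, 106 and 58.7 TPM in the sublingual gland. In pancreas KRT14 was at 7.35, 4.97, 4.798, 9.21, 10.2 and 6.35 TPM (5.21 ± 0.59, adjusted p = 3.6e-07). KRT5, its partner, had sublingual values of 1851, 85.5, 98.8, 2071, 86.7 and 18.9 TPM and pancreas values of 8.18, 4.15, 4.63, 13.6, 10.01 and 5.997 TPM (4.59 ± 0.70, adjusted p = 2.6e-05). Both were highest in animals 1 and 4, did not overlap with pancreas in any animal, and without animals 1 and 4 the differences were 3.996 (adjusted p = 1.1e-07) and 3.18 (adjusted p = 1.3e-05). KRT15 and KRT17, 2 more basal keratins, rose by 4.899 (adjusted p = 2.1e-06) and 4.28 (adjusted p = 1.5e-07). ACTA2 and TAGLN, contractile genes of myoepithelial and smooth muscle cells, did not pass with all animals (adjusted p = 0.14 and 0.13), and the pancreas of animal 4 held 714 and 3234 TPM, the highest values of either tissue. Without that pair they differed by 2.69 (adjusted p = 2.6e-04) and 3.29 (adjusted p = 2.5e-04). Of 13 squamous mucosa genes tested 0 passed in limma (3 were higher at an unadjusted p under 0.05). KRT13, a keratin of the mouth lining, and SPRR3 did not pass (1.09 ± 1.61, adjusted p = 0.74, and 0.87 ± 1.67, adjusted p = 0.81). KRT13 was at 10694, 46.96, 1.28, 34537, 129.8 and 0.778 TPM in the sublingual gland and 144, 22.7, 20.3, 132, 125 and 81.3 TPM in pancreas. The part of the mucosa genes in the keratin results was not tested beyond leaving out those animals.

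Of 21 tested ductal and simple epithelial genes (23 of 24 in the table) 10 rose and 4 fell (median 0.93, all genes: 10.4% higher, 3.51% lower). KRT23, a keratin of simple epithelium, was even across animals, at 175, 118, 138, 209, 132 and 138 TPM against 3.08, 2.28, 3.35, 4.32, 3.498 and 2.31 TPM (5.200 ± 0.45, adjusted p = 1.2e-08). CLDN4, a tight junction claudin, was at 243, 147, 217, 708, 306 and 142 TPM in the sublingual gland. In pancreas CLDN4 was at 24.9, 24.5, 32.03, 8.51, 16.8 and 19.8 TPM (3.600 ± 0.46, adjusted p = 2.6e-06). KRT7 rose by 2.62 with all animals and by 1.82 without animals 1 and 4, and S100A14, a calcium-binding protein of surface epithelia, by 4.38 and 3.46. CLDN10, an ion-conducting claudin of acinar cells, fell (-2.18 ± 0.55, adjusted p = 0.0065), but was not past the threshold without animal 1 (-1.80, adjusted p = 0.079) or animal 3 (-1.92, adjusted p = 0.055). SPP1, osteopontin, a product of pancreatic ducts, fell from 73.7, 51.8, 66.7, 14.01, 25.3 and 79.8 TPM to 3.64, 8.11, 23.1, 5.77, 3.08 and 1.17 TPM (-2.85 ± 0.51, adjusted p = 1.9e-04).

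**Figure D5:**
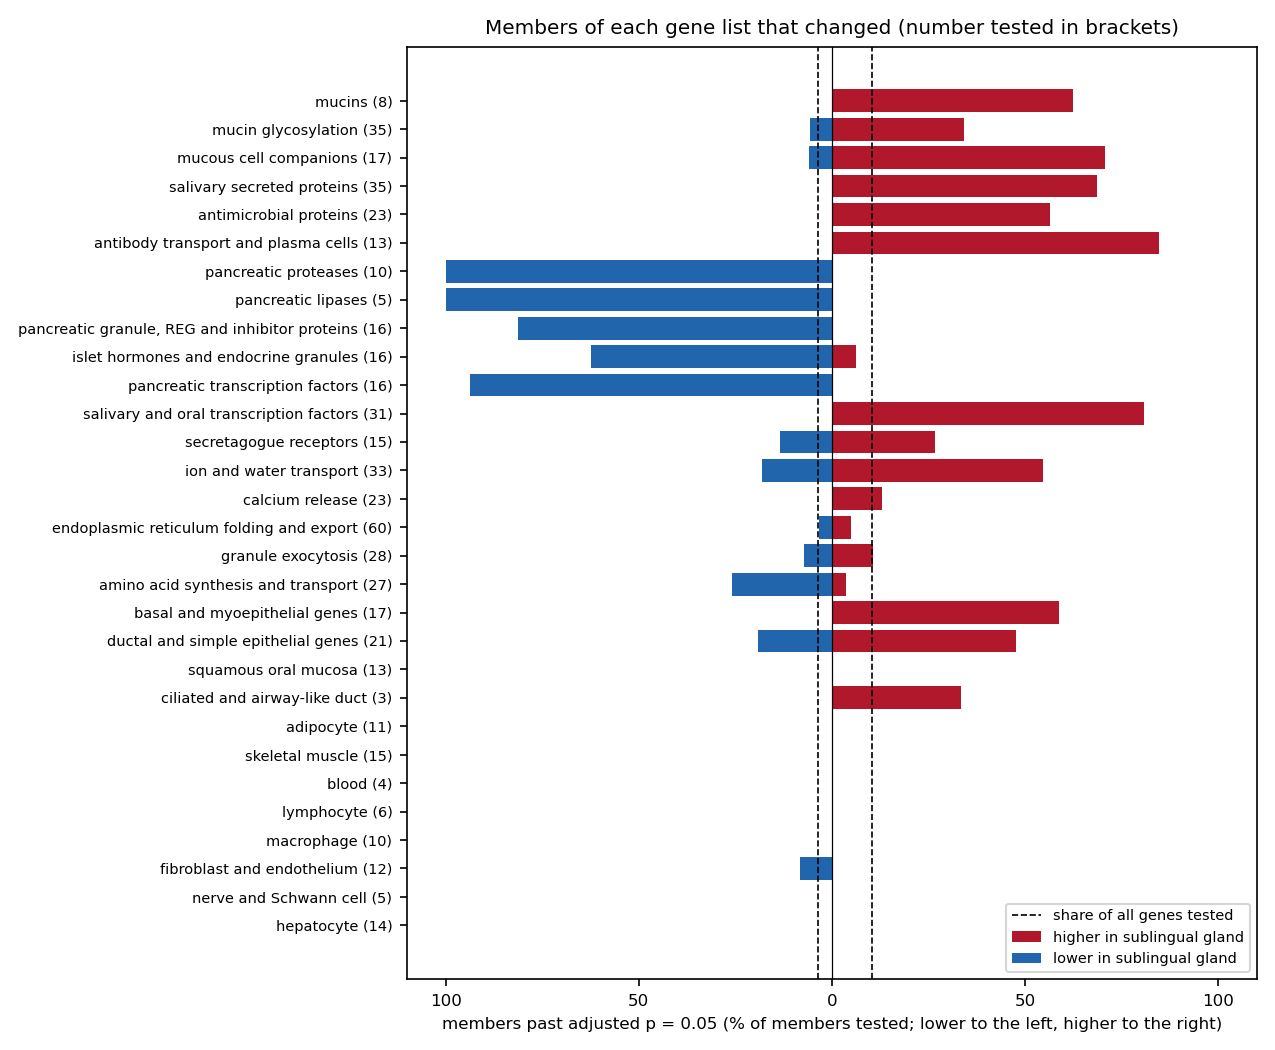
For each gene list, the percent of tested members past an adjusted p of 0.05 in limma, higher in the sublingual gland to the right (red) and lower to the left (blue), with the number tested in brackets; dashed lines mark the 10.4% higher and 3.51% lower of all 13550 genes. Enzyme and pancreatic transcription factor lists fill the left side. Salivary secreted protein, antibody, and salivary and oral transcription factor lists fill the right, and the lists of endoplasmic reticulum, fat, muscle and blood genes stay near 0.

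The lists for other cell types gave few calls in spite of large sums in single libraries. Of the adipocyte (11 tested), skeletal muscle (15), blood (4), lymphocyte (6), macrophage (10), nerve (5) and hepatocyte (14) genes, 0 passed in limma with all animals. At an unadjusted p under 0.05 the lymphocyte genes gave 2 higher, skeletal muscle 1 higher and the others 0. Of 12 fibroblast and endothelium genes 1 fell, the endothelial receptor KDR (-0.85 ± 0.24, adjusted p = 0.016), which did not pass without the pair of animal 4 (-0.71, adjusted p = 0.056), without animal 1 (-0.76, adjusted p = 0.10), animal 3 (adjusted p = 0.056) or animal 6 (adjusted p = 0.053). The part of these cell types in the results above was not tested beyond the fits without animals 1, 4 and 5.

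Of the 3 amylase genes tested, a family that the series title names, 2 were lower in the sublingual gland and 1 was not past the threshold. AMY2B was at 339.6, 17002, 1832, 139, 15001 and 7425 TPM in pancreas. Sublingual values of AMY2B were 91.4, 23.2, 79.6, 159.5, 167 and 115 TPM (-4.69 ± 0.75, adjusted p = 5.6e-05), lower in 5 of 6 animals. Flipping the signs of the 6 paired differences in all ways (exact permutation test, two-sided) gave p = 0.0625, where the smallest possible p is 0.03125. LOC114669773, an amylase gene without a symbol, was at 68433, 48591, 10661, 420.2, 10919 and 27849 TPM in pancreas. Sublingual values of LOC114669773 were 783, 66.3, 118, 306, 181 and 374 TPM, lower in 6 of 6 animals (mean -5.84, exact permutation p = 0.03125). LOC713027, another of these, was at 310.2, 517, 254, 195, 451 and 139 TPM in pancreas. Sublingual values of LOC713027 were 382, 339, 292, 241, 1034 and 217 TPM, which overlap with pancreas (mean 0.34, exact permutation p = 0.25), although parotid, with a mean of 13553 TPM, and submandibular gland, with 4608 TPM, held far more. The sum of the 3 genes differed by -4.62 in the mean (exact permutation p = 0.03125) and by -5.53 without animal 4. That sum ran from 428 to 1382 TPM in the sublingual gland and from 718 to 1141 TPM in liver. What these levels stem from was not tested.

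Against the other salivary glands, some of these genes set the sublingual gland apart as well. The difference from the mean of parotid and submandibular gland was past the threshold for 6034 genes on TPM (5903 higher, 43.6%, and 131 lower, 0.967%; median 0.63) and for 3118 with trimmed-mean scaling (1749 higher, 12.9%, and 1369 lower, 10.1%), so both scalings are given. Leaving out animal 1 gave 3066 genes on TPM and leaving out animal 4 gave 9373. This comparison shares the sublingual libraries with the one above. The submandibular library of animal 4 had the highest trimmed-mean factor of all 30, 2.91. Its fat cell genes summed to 13848 TPM (54.6 to 194 TPM in the other submandibular libraries) and its blood genes to 10911 TPM (45.9 to 216 TPM). Its salivary secreted protein genes summed to 10864 TPM, against 306766 to 505014 TPM. Skeletal muscle genes summed to 123977 TPM in the parotid library of animal 6 and 9492 TPM in that of animal 1. The part of these pieces in the differences was not tested beyond leaving out animals. SLPI had a mean of 2961 TPM in the sublingual gland, where parotid had 18.4 and submandibular gland 25.1 TPM, a difference of 6.49 on TPM and 5.57 with trimmed-mean scaling (adjusted p = 1.1e-12 and 1.9e-08). GCNT3 averaged 1.00 and 3.07 TPM in those glands (5.51 and 4.74), SOX2 0.267 and 0.346 TPM (4.29 and 3.78), and FCGBP 0.389 and 0.472 TPM (3.64 and 3.09), all past the threshold under both scalings. AQP5 and SPDEF were not past it under either (0.73 and 0.84 on TPM). SOX2 and FCGBP met the filter for testing with their sublingual libraries alone, so a higher call for them was favoured in advance. Which list members to name here was not fixed in advance.

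Another set of genes was lower in the sublingual gland than in pancreas and also than in the other glands. BHLHA15 had a mean of 12.9 TPM in the sublingual gland, 108 TPM in pancreas, and 85.7 and 71.4 TPM in parotid and submandibular gland. Its difference from those glands was -2.497 on TPM and -3.46 with trimmed-mean scaling (adjusted p = 0.0018 and 0.0015). RAB26 averaged 9.62, 55.8, 48.1 and 35.4 TPM in the same order (-1.98 and -2.87, adjusted p = 2.4e-04 and 3.9e-04). GATM averaged 18.2, 292, 66.3 and 43.8 TPM (-1.56 and -2.46), and CLDN10 averaged 16.3, 76.4, 40.9 and 62.2 TPM (-1.63 and -2.57), both past the threshold under both scalings. These 4 genes were picked after their values were seen. Against pancreas, BHLHA15 was not past the threshold without animal 1 or without animal 2 (adjusted p = 0.090 and 0.063). Nor was CLDN10 without animal 1 or without animal 3 (adjusted p = 0.079 and 0.055).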

How the data were processed

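The deposited table gives kallisto abundances in TPM per gene for 30 macaque libraries, as the authors' column names and the submitters' processing notes show. Those notes also list FastQC, MultiQC, cutadapt, HISAT2, SAMtools, featureCounts and DESeq2, without roles; the genome build and annotation are not given in the sources used here. TPM sums to a fixed total, so depth is unknown.

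Tissue and animal came from the labels. Genes at 1 TPM or more in at least 6 libraries (13550 of 21292) were tested on log2(TPM + 1) with limma 3.58.1 in R 4.3.3, with tissue and animal as terms, a variance trend, all 30 libraries and Benjamini-Hochberg adjustment at 0.05. Fold changes on this scale understate the change of low genes. A gene under 1 TPM in every library of a tissue entered the test only through other tissues, which favours a lower call for that tissue. On simulated data with 200 changed genes, the fit recovered 86% at a log2 change of 2 and 99% at 3, and 4.64% of its calls were false. The simulated noise was normal and independent between genes and libraries. These rates therefore do not cover pieces of unlike make-up, such as those of animal 4, which shift many genes together.

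Pairing came from the labels, since each animal gave both tissues. Correlations of the paired deviations ran from -0.19 to 0.23. Trimmed-mean factors, other filters, pseudocounts and left-out libraries were alternatives. The fits without animals 1 and 4 were chosen after seeing the data. Named genes were the 12 largest changes each way averaging at least 100 TPM and moving the same way in every animal, plus members of the gene lists. The members and lists were chosen with earlier results of these data known. Some genes of the lists are counted but not reported here by name.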

Additional observations from a re-analysis of the deposited data

Results flagged for a closer look

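In groups of 6 libraries, 15 of 54 sets of values held a library far from the other 5. On the log2(TPM + 1) scale, its gap to the nearest of them took most of the whole range (Dixon's test). Chance gives about 1 in 20, or 2.7 of 54, and the sets share libraries. Of the 15, 13 were the pancreas of animal 4, low for acinar genes: CELA1 (279 TPM), PRSS1 (995 TPM), PNLIPRP2 (103 TPM), PRSS2 (351 TPM), CPB1 (191 TPM), PNLIP (320.3 TPM), CPA1 (359 TPM), PNLIPRP1 (148 TPM), PDIA2 (23.5 TPM), PLA2G1B (328 TPM), CELA3B (544 TPM), CLPS (1107 TPM) and the amylase gene LOC114669773 (420.2 TPM). The sublingual gland of animal 4 was low for WFDC2 (624 TPM). The sublingual gland of animal 5 was high for LOC713027 (1034 TPM, against at most 382 TPM in the other 5). The fat cell and blood genes of the pancreas of animal 4 are given beside the library values above, and their part in these low values was not tested.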

How the results depend on the processing

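The count of changed genes (1887) moved most with scaling and with single animals. It was 2916 with trimmed-mean scaling, 3144 with quantile normalisation, 3210 relative to all but the 100 most abundant genes, 3463 with trimmed-mean scaling and animal 4 left out, 1183 with a filter at 5 TPM (8324 genes tested) and 1049 in the 12 libraries alone. Leaving out each animal in turn gave 1104 to 4277. Higher genes (1412) numbered 760 relative to all but the top 100 genes, 892 with the filter at 5 TPM, 2149 without the pair of animal 4, 708 in the 12 libraries and 764 to 3604 with each animal left out. Lower genes (475) numbered 1388 with trimmed-mean scaling, 1694 with quantile normalisation, 2450 relative to all but the top 100 genes, 776 without the filter, 291 with the filter at 5 TPM and 1652 with trimmed-mean scaling without animal 4; they ran from 331 to 673 with each animal left out. Leaving out animals 1 and 4 with trimmed-mean scaling, chosen after seeing the data, gave 1374 lower genes. The comparison with the other salivary glands (6034) gave 3118 with trimmed-mean scaling, 3243 with quantile normalisation, 3064 with trimmed-mean scaling without animal 4, 3502 without animals 1, 4 and 5, 1782 with trimmed-mean scaling without animals 1 and 4, and 3066 to 9373 with each animal left out. The causes were not tested.

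The pairing by animal mattered less: without the replicate block for animal, 1633 genes differed, of which 1611 were among the 1887. AMY2B kept its direction and its call under every alternative limma fit, while the exact permutation test over the 6 animals gave p = 0.0625.

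Genes that reversed had not passed the test. LOC713027 was at -0.24 with quantile normalisation, -0.36 relative to all but the top 100 genes, -0.19 with trimmed-mean scaling without animal 4 and -0.066 with it without animals 1 and 4. SMR3B was at -0.14 relative to all but the top 100 genes. MUC21 was at -0.089 with trimmed-mean scaling without animal 4, -1.76 without animals 1, 4 and 5, -1.38 without animals 1 and 4 and -1.65 with trimmed-mean scaling as well. KRT13 ran from -0.30 (without animal 4) to 2.42 with each animal left out, and was at -0.80 without animal 4 and with trimmed-mean scaling, -2.58 without animals 1, 4 and 5, -1.92 without animals 1 and 4 and -2.31 with trimmed-mean scaling as well. SPRR3 ran from -0.50 (without animal 4) to 2.19 with each animal left out, with -0.37 without animal 1, and was at -0.96 without animal 4 and with trimmed-mean scaling, -3.14 without animals 1, 4 and 5, -2.39 without animals 1 and 4 and -2.73 with trimmed-mean scaling as well. TPM carries no depth, so counting error could not be given.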

Other observations

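The low levels of salivary genes in pancreas also had an order by animal. Of the 19 salivary genes that rose and averaged at least 100 TPM in the sublingual gland, 11 had their highest pancreas value in animal 5 and 13 their lowest in animal 2. Of these genes, 14 averaged under 2% of their sublingual level in pancreas, and CST3, cystatin C, which many tissues make, was the highest at 40.6%.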
